A study of Mus musculus with 9 samples.

Results

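The 10 genes described here encode mTOR complex 1 (mTORC1) and its regulators, and they were named for their roles in this pathway, with earlier results of these data known: the kinase Mtor, the adaptors Rptor and Rictor, the tuberous sclerosis genes Tsc1 and Tsc2, the GTPase Rheb, the sestrins Sesn1 and Sesn3, the stress-induced inhibitor Ddit4 and the substrate Eif4ebp1. All 10 were among the 29995 genes of the expression table without immunoglobulin (Ig) genes, and all 10 were among the 12892 genes tested. RNA-seq was performed on 3 splenic populations, namely naïve B cells, activated B cells specific for the hapten NP, and plasma cells (PCs) of the same specificity, with 3 libraries in each of the 3 groups. All mice were heterozygous for a Blimp1-GFP reporter (B6.Blimp1GFP/+), were 12 weeks old, and had received 50 µg of NP-LPS, a hapten coupled to lipopolysaccharide, by intraperitoneal injection 4 days earlier. No group came from unimmunized mice, so the naïve B cells also came from mice that had been given LPS. Naïve B cells were sorted as IgD high, B220+ cells that did not bind NP, activated B cells as IgD-, CD138-, GFP-, B220+ cells that bound NP, and PCs as IgD-, CD138+, GFP+ cells that bound NP. Cells that stained for CD4, CD8a, Ter-119 or F4-80, which mark T cells, erythroid cells and macrophages, were gated out.

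mTORC1 is a kinase complex that couples growth to the supply of amino acids, growth factors and energy. Raptor (Rptor) brings substrates to the kinase, whereas Rictor defines a separate complex, mTORC2, that shares the mTOR subunit. Rheb in its GTP-bound form switches the kinase on at the lysosome, and the TSC complex, in which Tsc2 carries the GTPase-activating activity and Tsc1 stabilizes it, switches Rheb off. Sestrins restrain the complex through the GATOR proteins, and REDD1 (Ddit4) restrains it through TSC. The eIF4E-binding protein encoded by Eif4ebp1 blocks cap-dependent translation until mTORC1 phosphorylates it. In B-lineage cells the complex is known for supporting growth after activation and antibody synthesis in PCs. Its activity is set mainly by protein modification, which mRNA levels do not measure.

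The libraries held 20189900 to 38602300 estimated reads outside the Ig genes, with the PC libraries at 20189900 to 22137400. The summed level of 5 B cell markers ran from 7694 to 8046 TPM (transcript abundance corrected for length and library size) in naïve B cells, from 5773 to 6293 in activated B cells and from 1492 to 1565 in PCs, and that of 5 PC markers from 142 to 167, from 175 to 194 and from 4811 to 5939. From naïve to activated B cells 1 B cell marker went against its sum, Ms4a1 (mean 864 to 1277 TPM). Among the PC markers Sdc1 (7.02 to 0.943) and Irf4 (25.1 to 11.1) did, while Xbp1 rose from 119 to 156. A PC library and an activated B cell library stood apart by markers of other cells. In PC replicate 3 the 5 hepatocyte markers summed to 4554 TPM, against 22.8 and 26.3 in the other PC libraries and at most 5.13 elsewhere. None of the 5 was at 0 in all libraries of a group, and Alb, serum albumin, was at 660 TPM in that library against 0.0810 and 0.166 in the others. The members' changes in PCs are also given without that library. The 5 macrophage markers summed to 9.35 to 9.70 TPM in naïve B cells, 53.4 to 70.4 in activated B cells and 32.8 to 93.9 in PCs, most of it Cd68 in activated B cells. The 93.9 was in PC replicate 3, with Lyz2 at 48.2 TPM, against 32.8 and 45.3 in the other PC libraries. The 5 neutrophil markers summed to 1.06 to 3.47, 0.495 to 50.0 and 5.97 to 33.7 TPM. The 50.0 was in activated B cell replicate 2, against 1.75 and 0.495 in the other activated B cell libraries. The 33.7 was in PC replicate 3, against 6.54 and 5.97 in the other PC libraries. Only in activated B cells was a marker of that list, Elane, at 0 in every library. The 5 T cell markers summed to at most 7.42 TPM and the 5 erythroid markers to at most 24.8 TPM in any library, in cells from which the gate removed those that stained for T cell, erythroid and macrophage surface proteins. The part of these other cells in the results below was not tested. In such bulk samples fewer cells of a type cannot be told apart from less RNA per cell.

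The promoter windows of Sesn1, Ddit4 and Rheb are shown first, because Sesn1 and Ddit4 were the members called in the PC comparisons and Rheb the member that was higher in both NP-binding populations by the adjusted p alone with Ig genes left out. Each window holds 300 bases, 250 before and 50 after the RefSeq start site (GRCm38.p6), 5′ to 3′ on the gene's strand. In GENCODE M21 (mm10) Sesn1 (ENSMUSG00000038332) spans chr10:41809935-41908424, Ddit4 (ENSMUSG00000020108) chr10:59949669-59951834 and Rheb (ENSMUSG00000028945) chr5:24802823-24842624. RefSeq windows were matched for 9 of the 10 members. Capitals mark letters matched on either strand to a FOXO motif (GTAAACA), an E-box (CACGTG), a C/EBP-ATF motif (TGATGNAA) or a CCAAT box (CCAAT), and no matches overlapped. The Sesn1 windows lie at chr10:41810324-41810623 and chr10:41887189-41887488 (both plus strand), the Ddit4 window at chr10:59951721-59952020 and the Rheb window at chr5:24842312-24842611 (both minus strand).
Sesn1, first start site: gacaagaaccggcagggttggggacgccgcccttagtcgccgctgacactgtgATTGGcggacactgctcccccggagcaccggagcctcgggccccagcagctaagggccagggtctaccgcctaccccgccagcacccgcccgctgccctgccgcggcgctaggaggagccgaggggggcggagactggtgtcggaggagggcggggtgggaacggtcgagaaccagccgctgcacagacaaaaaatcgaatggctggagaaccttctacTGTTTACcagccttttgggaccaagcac
Sesn1, second start site: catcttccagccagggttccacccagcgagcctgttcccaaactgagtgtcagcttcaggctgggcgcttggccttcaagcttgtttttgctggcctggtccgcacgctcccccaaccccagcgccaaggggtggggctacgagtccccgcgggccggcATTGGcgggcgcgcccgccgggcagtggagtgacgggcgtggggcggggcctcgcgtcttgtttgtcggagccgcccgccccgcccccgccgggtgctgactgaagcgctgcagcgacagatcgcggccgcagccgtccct
Ddit4: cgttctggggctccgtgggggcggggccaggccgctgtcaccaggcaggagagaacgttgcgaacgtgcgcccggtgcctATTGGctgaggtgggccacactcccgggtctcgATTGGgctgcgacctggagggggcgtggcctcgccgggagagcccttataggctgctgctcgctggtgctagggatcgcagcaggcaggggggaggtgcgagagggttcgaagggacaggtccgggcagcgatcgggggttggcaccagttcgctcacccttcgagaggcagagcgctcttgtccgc
Rheb: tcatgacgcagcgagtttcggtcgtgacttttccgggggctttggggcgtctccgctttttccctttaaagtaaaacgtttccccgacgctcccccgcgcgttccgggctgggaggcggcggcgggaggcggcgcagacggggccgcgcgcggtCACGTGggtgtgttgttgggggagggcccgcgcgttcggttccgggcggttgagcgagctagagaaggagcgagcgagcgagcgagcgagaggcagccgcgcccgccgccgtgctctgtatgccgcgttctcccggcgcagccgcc

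The first Sesn1 window held the FOXO letters, starting at 22 bases after the start site, and these letters were found in 3.65% of the 32851 windows of this kind. The Rheb window held the E-box letters at -96, which were found in 7.15% of windows. CCAAT letters, found in 37.4% of windows, were present in both Sesn1 windows (at -197 and -91) and at -170 and -137 in the Ddit4 window. The C/EBP-ATF letters, found in 3.97% of windows, were in none of the 10 windows of the members. These matches are letters in a sequence and not measured binding. Expression was summed per gene, so the use of either Sesn1 start site cannot be told apart.

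Sesn1 and Ddit4 were the members that passed both thresholds, an adjusted p under 0.05 and a fold over 2, in the PC comparisons. Sesn1, whose product restrains mTORC1 when leucine is low, stood at 91.9, 88.9 and 93.6 TPM in naïve B cells, at 68.0, 55.9 and 58.0 in activated B cells and at 16.4, 20.5 and 14.4 in PCs. The 3 groups did not overlap, and every PC library was below every other library. In the limma fit across all genes, Sesn1 was 5.30-fold lower in PCs than in naïve B cells (log2 change -2.41, SE 0.15, adjusted p = 1.65e-07) and 3.49-fold lower than in activated B cells (-1.80, SE 0.15, adjusted p = 2.46e-06). It was already lower in activated B cells than in naïve B cells, by 1.52-fold (log2 change -0.60, SE 0.12, adjusted p = 0.0027). Without PC replicate 3 the changes in PCs were -2.29 (adjusted p = 9.27e-07) and -1.69 (adjusted p = 1.25e-05).

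Ddit4, the stress- and glucocorticoid-induced gene for REDD1, was measured at 6.40, 9.42 and 8.85 TPM in naïve B cells, at 7.53, 8.64 and 7.96 in activated B cells and at 1.48, 1.04 and 1.36 in PCs. Activated and naïve B cells overlapped fully, while all PC libraries lay below both. The level in PCs rested on 30.4 to 42.2 estimated reads per library, against 250 to 404 in the other groups. Ddit4 was 4.85-fold lower in PCs than in naïve B cells (log2 change -2.28, SE 0.26, adjusted p = 2.11e-05) and 4.77-fold lower than in activated B cells (-2.26, SE 0.26, adjusted p = 2.81e-05). Between activated and naïve B cells the change was -0.02 (95% interval -0.45 to 0.40, adjusted p = 0.934). Without PC replicate 3 its changes in PCs were -2.31 and -2.28 (adjusted p = 0.00014 and 0.000177).

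Sesn3, a sestrin induced by FOXO factors in other tissues, was low and uneven between libraries. Its levels were 0.687, 1.10 and 0 TPM in naïve B cells, 3.91, 0.354 and 6.59 in activated B cells, and 1.20, 0.885 and 0 in PCs. A count of 3 reads, the floor used here, corresponds to 0.0777 TPM in the naïve library at 0 and 0.0968 TPM in the PC library at 0. Activated B cells held both the highest values and, in replicate 2, a value below most naïve and PC libraries, so the groups overlapped. The log2 change was 1.60 between activated and naïve B cells (SE 0.84, adjusted p = 0.15) and -1.50 between PCs and activated B cells (SE 0.83, adjusted p = 0.154). Replicate 2 of the activated B cells decided these values: without it the changes were 2.50 (adjusted p = 0.00532) and -2.40 (adjusted p = 0.00359). That library also held the 50.0 TPM of neutrophil markers, with S100a8 at 24.7 TPM against 0 in both other activated B cell libraries, and the part of these cells in the Sesn3 values was not tested. Without PC replicate 3 Sesn3 changed by 0.64 in PCs against naïve B cells (adjusted p = 0.596) and by -0.96 against activated B cells (adjusted p = 0.388). Sesn2, the third sestrin and no member of the 10, was at 5.24 ± 0.596 TPM in naïve B cells, 5.41 ± 1.08 in activated B cells and 4.20 ± 2.00 in PCs (SD, n = 3), and its changes of 0.02, -0.38 and -0.40 in activated B cells against naïve B cells, PCs against naïve B cells and PCs against activated B cells had adjusted p-values of 0.955, 0.298 and 0.289.

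**Figure D1:**
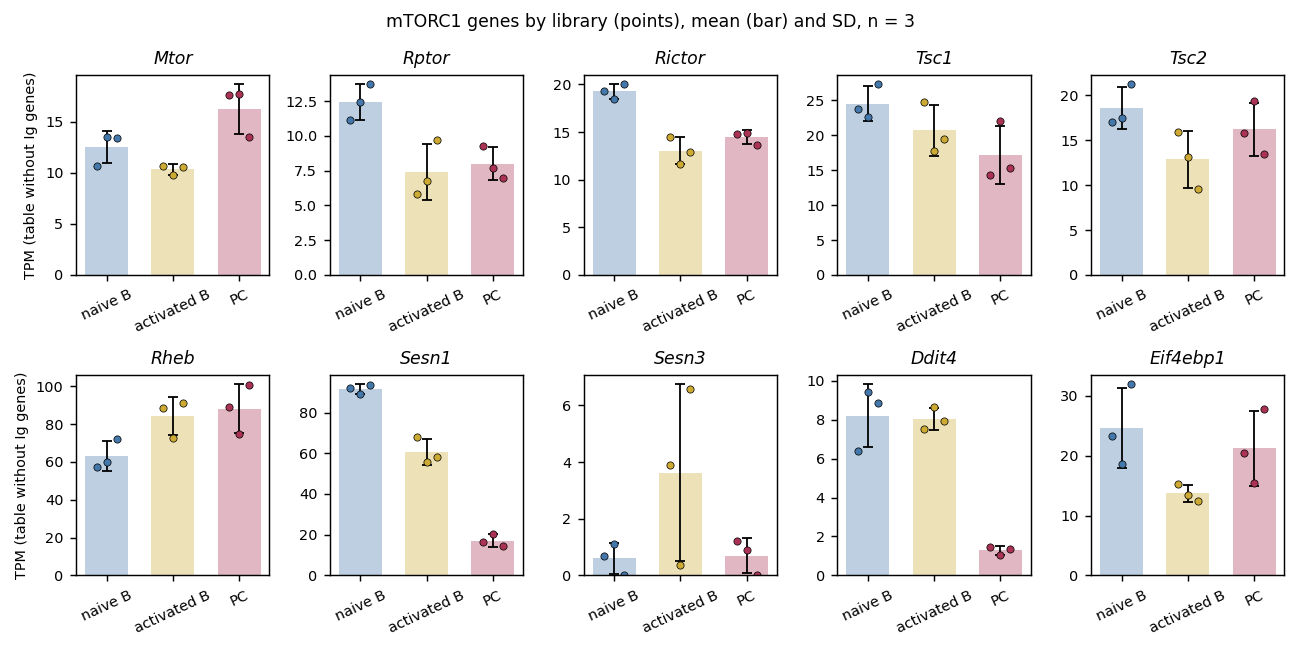
TPM of each mTORC1 gene in the table without Ig genes (y axis, one scale per gene) in naïve B cells, activated B cells and PCs, with points for the 3 libraries of a group, bars for the mean and error bars for the SD. Sesn1 stepped down through the 3 groups without overlap, Ddit4 was at 1.04 to 1.48 TPM in PCs and at 6.40 or more elsewhere, and Sesn3 was at or near 0 in most libraries.

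Rheb, the direct activator of the kinase, was at 57.3, 60.1 and 72.1 TPM in naïve B cells, at 88.8, 72.7 and 91.4 in activated B cells and at 88.9, 74.8 and 100.7 in PCs. The lowest library of each NP-binding population, 72.7 and 74.8 TPM, lay just above the highest naïve library. Rheb was 1.32-fold higher in activated B cells than in naïve B cells (log2 change 0.40, SE 0.15, adjusted p = 0.047) and 1.38-fold higher in PCs (0.47, SE 0.15, adjusted p = 0.0175), both under the 2-fold threshold. PCs and activated B cells differed by 0.06 (95% interval -0.25 to 0.38, adjusted p = 0.739), and by -0.036 (adjusted p = 0.863) without PC replicate 3. Either rise missed the threshold when single libraries were left out, with adjusted p-values up to 0.154 and 0.0708, and the latter was 0.0596 without PC replicate 3. The rise in activated B cells also missed it under quantile normalization (0.28, adjusted p = 0.127) and with Ig genes kept (0.39, adjusted p = 0.0537). With Ig genes kept the change in PCs against naïve B cells turned to -0.74 (adjusted p = 0.00232).

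Tsc1, the stabilizing subunit of the TSC complex, was at 23.7, 22.6 and 27.3 TPM in naïve B cells, at 24.8, 17.8 and 19.5 in activated B cells and at 14.4, 22.0 and 15.3 in PCs. The PC libraries all lay below the naïve libraries, though replicate 2 only just. Tsc1 was 1.44-fold lower in PCs than in naïve B cells (log2 change -0.52, SE 0.19, adjusted p = 0.0337), and without PC replicate 3 this was -0.45 (adjusted p = 0.0951). With the replicate number fitted as a block its adjusted p was 0.0561. Its other changes were -0.26 in activated against naïve B cells (adjusted p = 0.283) and -0.27 in PCs against activated B cells (adjusted p = 0.275, and -0.19 with 0.499 without PC replicate 3). Tsc2, the GTPase-activating subunit, was at 17.0, 17.4 and 21.3 TPM in naïve B cells, at 15.9, 13.1 and 9.62 in activated B cells and at 15.8, 19.3 and 13.5 in PCs. Although activated B cells lay below all naïve libraries, Tsc2 missed the threshold in each comparison, with log2 changes of -0.54 (SE 0.21, adjusted p = 0.0579), -0.20 (adjusted p = 0.398) and 0.34 (adjusted p = 0.209). Without PC replicate 3 they were -0.54 (adjusted p = 0.0495), -0.08 (adjusted p = 0.762) and 0.46 (adjusted p = 0.112). Tsc2 shares 7.20% of its exonic bases with Pkd1 on the other strand, and the library kit does not mark strand, so some of its reads cannot be told apart from those of Pkd1.

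Mtor, the kinase of both complexes, was at 10.7, 13.5 and 13.4 TPM in naïve B cells, at 10.7, 9.77 and 10.5 in activated B cells and at 17.6, 17.8 and 13.5 in PCs. All PC libraries were above the activated B cell libraries, and PC replicate 3 was level with the upper naïve ones. Mtor was 1.54-fold higher in PCs than in activated B cells (log2 change 0.62, SE 0.17, adjusted p = 0.0107), with 0.75 (adjusted p = 0.00408) without PC replicate 3. With Ig genes kept the sign turned, at -0.49 (adjusted p = 0.0175). Against naïve B cells it changed by 0.35 in PCs (95% interval -0.02 to 0.73, adjusted p = 0.0913) and by -0.27 in activated B cells (adjusted p = 0.251). The first of these passed the threshold without PC replicate 3 (0.48, adjusted p = 0.0293).

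Rptor, the adaptor that defines mTORC1, was at 11.2, 12.4 and 13.7 TPM in naïve B cells, at 5.80, 6.78 and 9.69 in activated B cells and at 9.31, 7.68 and 7.00 in PCs. Every NP-binding library was below every naïve library. Rptor was 1.67-fold lower in activated B cells (log2 change -0.74, SE 0.21, adjusted p = 0.0161) and 1.53-fold lower in PCs (-0.62, SE 0.21, adjusted p = 0.0233), and without PC replicate 3 the latter was -0.53 (adjusted p = 0.0725). Its adjusted p in activated B cells reached 0.0595 when single libraries were left out. Rictor, the adaptor of mTORC2, was at 19.4, 18.5 and 20.0 TPM in naïve B cells, at 14.5, 11.7 and 13.0 in activated B cells and at 14.8, 14.9 and 13.6 in PCs. It was 1.47-fold lower in activated B cells (-0.56, SE 0.14, adjusted p = 0.00975) and 1.33-fold lower in PCs (-0.41, SE 0.14, adjusted p = 0.0261), the latter with an adjusted p of 0.0711 without PC replicate 3. The sign in PCs turned under median-of-ratios scaling (0.070, adjusted p = 0.683) and quantile normalization (0.12, adjusted p = 0.413). Between PCs and activated B cells the 2 adaptors differed by 0.12 (95% interval -0.37 to 0.61) and 0.15 (-0.18 to 0.48). These were 0.21 (adjusted p = 0.513) and 0.19 (adjusted p = 0.366) without PC replicate 3.

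Eif4ebp1, the translational repressor that mTORC1 inactivates, was at 23.3, 18.7 and 31.9 TPM in naïve B cells, at 15.2, 13.4 and 12.5 in activated B cells and at 20.5, 15.4 and 27.9 in PCs. Activated B cells lay below all other libraries, PC replicate 2 being nearest to them, and naïve B cells and PCs overlapped. It was 1.74-fold lower in activated B cells than in naïve B cells (log2 change -0.80, SE 0.25, adjusted p = 0.0251), an effect whose adjusted p reached 0.0951 when single libraries were left out. PCs were above activated B cells by 0.58 (95% interval 0.02 to 1.15) with an adjusted p of 0.0757, and differed from naïve B cells by -0.22 (adjusted p = 0.437). Without PC replicate 3, the highest PC library, these were 0.37 (adjusted p = 0.246) and -0.43 (adjusted p = 0.14). With the replicate number fitted as a block the first passed the adjusted p (0.61, adjusted p = 0.0297). Of the stretches of 31 bases in Eif4ebp1 transcripts, 7.20% also occur in other annotated genes, Gm14143 and Gm10432 most of all, so a part of its reads could have been assigned either way. Eif4ebp2, its relative, was at 14.0 ± 0.869, 16.4 ± 2.27 and 12.9 ± 1.71 TPM (SD, n = 3) in naïve B cells, activated B cells and PCs and passed the test in no comparison (adjusted p = 0.335, 0.542 and 0.119).

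**Figure D2:**
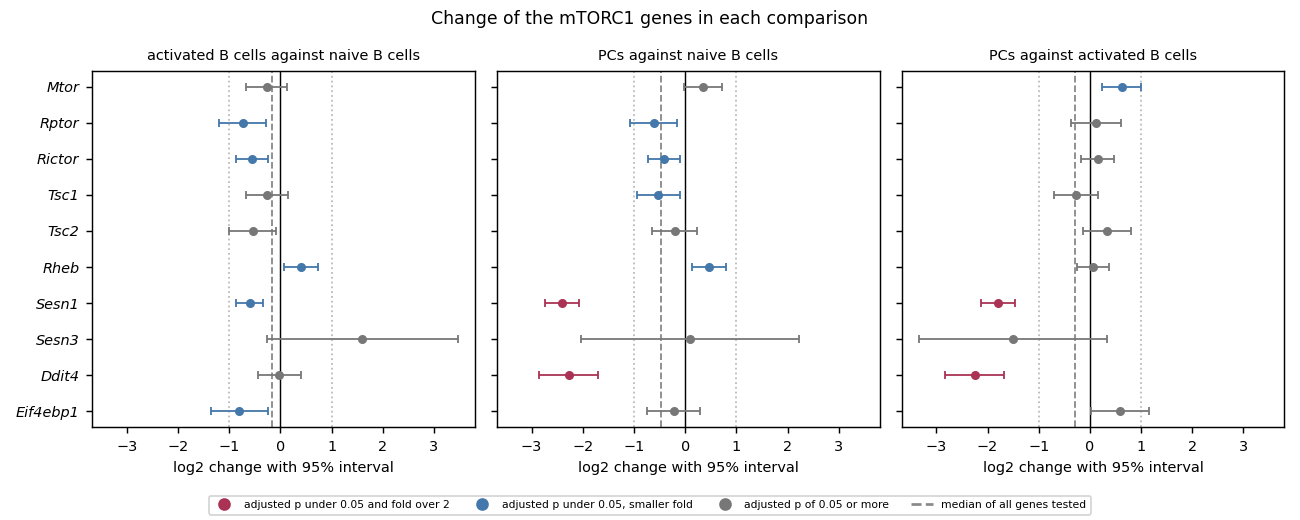
Log2 change of each mTORC1 gene with its 95% interval (x axis) in the 3 comparisons, coloured by the test, with the median of all genes tested as a dashed line and 2-fold changes as dotted lines. Sesn1 and Ddit4 in the PC comparisons passed both thresholds, and Rheb lay on the positive side in all 3 with Ig genes left out (on the negative side in PCs with Ig genes kept, and against activated B cells also without PC replicate 3), with an interval across 0 between PCs and activated B cells.

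Counted together, 0 of the 10 genes differed by more than 2-fold at an adjusted p under 0.05 between activated and naïve B cells in limma, where 18.5% of all genes tested did (8.13% higher and 10.4% lower). At an unadjusted p under 0.05, with no threshold on the fold, there were 6, a count that is not set against a share of all genes. At both thresholds 19 of 20 alternative settings also gave 0. By the adjusted p alone, with no threshold on the fold, 1 member was higher (Rheb) and 4 lower (Sesn1, Rictor, Rptor and Eif4ebp1), against 42.1% of all genes (18.6% higher and 23.5% lower). In PCs against naïve B cells 2 of 10 passed both thresholds, both lower, against 37.8% of all genes (11.4% higher and 26.3% lower). By the adjusted p alone 1 was higher (Rheb) and 5 lower (Sesn1, Ddit4, Rptor, Rictor and Tsc1), against 60.3% (18.2% higher and 42.2% lower), and without PC replicate 3 the split was 1 higher (Mtor) and 2 lower (Sesn1 and Ddit4). In PCs against activated B cells again 2 of 10 passed both, both lower, against 32.2% of all genes (9.93% higher and 22.3% lower). By the adjusted p alone 1 was higher (Mtor) and 2 lower, against 53.8% (15.7% higher and 38.1% lower). By both thresholds in this fit the members' shares were below those of all genes in each of the 3 comparisons. By the adjusted p alone the members' counts were 5, 6 and 3 of 10, so neither count sets them apart. Their median log2 changes were -0.40, -0.31 and 0.09, beside -0.16, -0.47 and -0.30 for all genes. The comparisons share libraries and are not independent of each other.

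The median gene was lower in PCs, and the direction of the smaller changes depended on the scaling. Median-of-ratios scaling moved the median of all genes by 0.10, 0.43 and 0.34 in activated B cells against naïve B cells, PCs against naïve B cells and PCs against activated B cells. All-gene calls in PCs against naïve B cells then split into 2238 higher and 1967 lower, in place of 1473 and 3397, and in PCs against activated B cells into 1903 and 1894, in place of 1280 and 2870. Under it Rictor, Tsc2 and Eif4ebp1 turned from lower to slightly higher in PCs against naïve B cells (0.07, 0.28 and 0.26), and Tsc1 turned to 0.11 in PCs against activated B cells. Rheb and Mtor were then higher in PCs than in naïve B cells by 0.96 (adjusted p = 0.000125) and 0.83 (adjusted p = 0.00146). Rptor and Tsc1 no longer passed the adjusted p (-0.15 and -0.04). Against activated B cells 5 members were then higher in PCs by the adjusted p alone, namely Mtor (0.99), Eif4ebp1 (0.96), Tsc2 (0.71), Rictor (0.52) and Rheb (0.44), and 2 lower. Quantile normalization gave 6 higher, with Rptor (0.60) added, and 2 lower. The all-gene counts above are at both thresholds and so give no share for these counts. Sesn1 at -1.92 and Ddit4 at -1.87 were still called lower in PCs than in naïve B cells.

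Keeping the Ig genes had the opposite effect, since Ig transcripts took a large part of the PC abundances: a gene's TPM without Ig genes was 3.33 to 3.60 times that in the full table in PCs, against 1.07 in naïve B cells and 1.11 to 1.13 in activated B cells. The median of all genes tested then moved by -0.93 and -0.97 in the PC comparisons. With Ig genes kept, 7943 of the 12324 genes tested were called lower in PCs than in naïve B cells and 551 higher. Of the members 7 were called lower, and Rheb changed sign to -0.74. In that table Rheb was at 26.5, 20.8 and 30.2 TPM in PCs and at 53.7, 56.2 and 67.6 in naïve B cells. Relative to all transcripts, Ig included, every member but Sesn3 was thus lower in PCs than in naïve B cells at an adjusted p under 0.05, whereas relative to transcripts other than Ig only Sesn1, Ddit4, Rptor, Rictor and Tsc1 were. Sesn1 and Ddit4 were lower in PCs than in either other group, past both thresholds, in each of the 20 alternatives for Sesn1 and the 19 in which Ddit4 was tested.

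**Figure D3:**
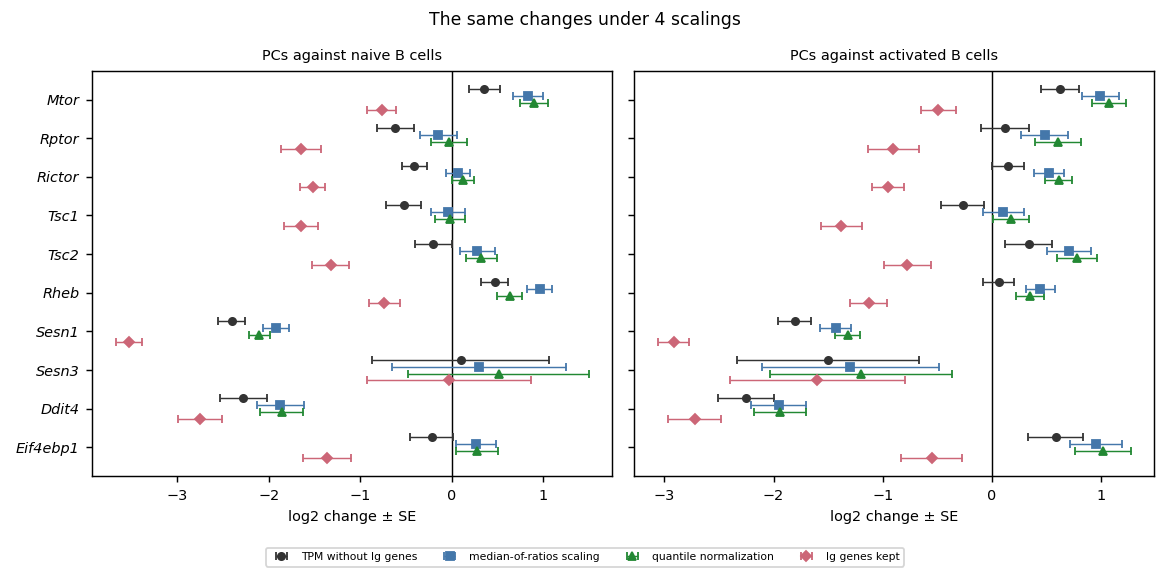
Log2 change ± SE of each mTORC1 gene (x axis) in PCs against naïve B cells and against activated B cells, under the scaling used in the text, median-of-ratios scaling, quantile normalization and with Ig genes kept. Sesn1 and Ddit4 stayed on the negative side under all 4, while each of the other 8 fell on different sides of 0 in one or both of the comparisons.

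Ratios between genes of one library do not depend on a factor applied to the whole library, though quantile normalization can move them, and were computed after the values had been seen. Rptor per Mtor was 1.04, 0.918 and 1.03 in naïve B cells, 0.541, 0.694 and 0.920 in activated B cells and 0.529, 0.432 and 0.519 in PCs, so PCs lay below both other groups. Rictor per Mtor was 1.81, 1.37 and 1.50, then 1.35, 1.19 and 1.23, then 0.844, 0.841 and 1.01, with no overlap between any of the 3 groups. Relative to the shared kinase, both adaptors were thus lowest in PCs. The ratio between them, Rptor per Rictor, overlapped in all 3 comparisons.

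Rheb per Tsc2 was 3.37, 3.45 and 3.39 in naïve B cells, 5.58, 5.55 and 9.50 in activated B cells and 5.61, 3.87 and 7.47 in PCs. Both NP-binding populations thus held more transcripts of the activator per transcript of its inhibitor than naïve B cells, and overlapped each other. Sesn1 per Rheb was 1.60, 1.48 and 1.30 in naïve B cells, 0.766, 0.769 and 0.635 in activated B cells and 0.184, 0.275 and 0.143 in PCs, without overlap. Eif4ebp1 per Eif4e, the repressor per transcript of the cap-binding protein it holds, was 1.26, 1.03 and 1.48 in naïve B cells, 0.604, 0.567 and 0.536 in activated B cells and 1.22, 0.803 and 1.31 in PCs. Activated B cells alone stood below on that ratio. With 3 libraries against 3 an exact two-sided permutation test cannot go below p = 0.1, the value for each pair of groups that did not overlap, and adjusted over the 30 ratio tests this is 0.158.

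**Figure D4:**
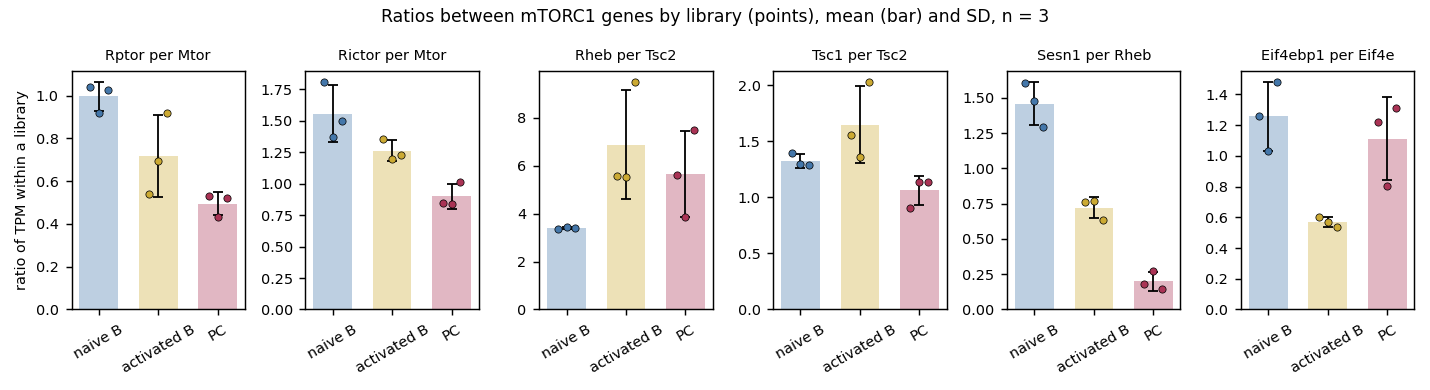
Ratio of TPM between 2 genes of the same library (y axis) in naïve B cells, activated B cells and PCs, with points for the 3 libraries, bars for the mean and error bars for the SD. Rptor and Rictor per Mtor were lowest in PCs, Sesn1 per Rheb fell from 1.30 or more in naïve libraries to 0.275 or less in PCs, and Eif4ebp1 per Eif4e was lowest in activated B cells.

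The order of the members by TPM, which is corrected for transcript length, also differed between the groups. In naïve B cells Sesn1 (91.5 ± 2.39) led, followed by Rheb (63.2 ± 7.86), then Eif4ebp1 and Tsc1, Rictor and Tsc2, Mtor and Rptor as pairs within which the libraries overlapped, then Ddit4 and last Sesn3. Rheb led in activated B cells (84.3 ± 10.1), above Sesn1 (60.6 ± 6.45) and Tsc1 (20.7 ± 3.64), while neighbours from Eif4ebp1 through Rictor and Tsc2 to Mtor overlapped. In PCs Rheb (88.1 ± 13.0) stood alone, and Sesn1 (17.1 ± 3.16) had dropped among Eif4ebp1, Tsc1, Mtor, Tsc2 and Rictor, where each overlapped the next. All errors here are SD of 3 libraries. Sesn1 made up 94.0% ± 0.108 (SD, n = 3) of the summed TPM of the 3 sestrins in naïve B cells, 87.0% ± 3.30 in activated B cells and 78.2% ± 4.14 in PCs, so it was the main sestrin transcript in each group.

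The genes whose pattern over the 9 libraries was most like that of the 2 changed inhibitors were picked by Pearson's r of log2(TPM + 0.5), as a description. For Sesn1 these were Adck3 (r = 0.9982) and Gimap6 (r = 0.9981), and 1072 genes had an r over 0.95. Gimap6, a GTPase of lymphocytes, had mean levels of 815, 597 and 169 TPM in naïve B cells, activated B cells and PCs. For Ddit4 they were Zfp385a (r = 0.9939) and Slc6a6 (r = 0.993), with 775 genes over 0.95. Slc6a6, the taurine transporter, had mean levels of 10.4, 9.27 and 2.47 TPM. The libraries fall into 3 groups, so such values mainly rank genes by their group means.

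A wider list of 71 pathway genes was examined beside the 10 members, of which 65 were tested. Between activated and naïve B cells 2 were higher and 6 lower (12.3% of those tested, against 18.5% of all genes), and the list's median log2 change was -0.12. The 2 that rose encode kinases. Akt1, which inactivates Tsc2, rose from 9.02 ± 0.958 to 23.1 ± 5.90 TPM (log2 change 1.28, SE 0.20, adjusted p = 0.000616). Rps6kb1, the S6 kinase that mTORC1 activates, rose from 37.0 ± 1.03 to 79.6 ± 22.2 TPM (1.05, SE 0.18, adjusted p = 0.00104). It rose by 0.84 without activated B cell replicate 1, which was the highest at 105 TPM. Without that library 5 list genes passed, and of all genes 957 were called higher and 1187 lower. Among the largest falls were those of the Rag GTPase Rragb (log2 change -1.44, adjusted p = 0.00723) and the lipin Lpin1 (-1.27, adjusted p = 0.00397), both under 10 TPM. Rragb missed the threshold in the authors' log2 values (-1.68, adjusted p = 0.0709) and Lpin1 fell just short of 2-fold under quantile normalization (-0.99). By class, 3 of 12 Rag and Ragulator genes were lower. Rragd, among these, had an adjusted p of 0.0344 and lost its call in 9 of 18 alternatives, each single naïve or activated B cell library left out among them. Of the other classes, 0 of 12 GATOR and KICSTOR genes, 0 of 6 sensors and 0 of 8 further mTOR complex genes passed. Of 2 genes in the class of the TSC complex and Rheb relatives 1 was lower. This was Rhebl1 (-1.25, SE 0.19, adjusted p = 0.000586), which went from 24.4 to 10.2 TPM. The PI3K, AKT and AMPK inputs had 1 gene higher and 1 lower, as did the substrates and translation targets.

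In PCs against naïve B cells 1 of the 65 was higher and 17 lower (27.7%, against 37.8% of all genes), with a median of -0.45. Sec13, which serves both GATOR2 and the COPII coat of vesicles leaving the endoplasmic reticulum, was the gene that rose, from 142 ± 4.48 to 462 ± 47.8 TPM (log2 change 1.69, SE 0.10, adjusted p = 1.87e-07). Among the largest falls were those of Tfeb, the lysosomal transcription factor that mTORC1 keeps in the cytoplasm (-2.95, adjusted p = 3.42e-07), and of Rragb (-2.42, adjusted p = 0.000364). Tfeb went from 94.7 ± 1.38 to 12.0 ± 1.78 TPM. Of 8 further mTOR complex genes 3 were lower, Prr5l, Telo2 and Tti1, of which the last 2 act in the assembly of the kinase. Of 12 GATOR and KICSTOR genes 4 were lower and 1, Sec13, higher. Without PC replicate 3 Sec13 changed by 1.76, Tfeb by -2.82 and Rragb by -2.53, each still called. The split was then 2 higher and 14 lower, and under median-of-ratios scaling it was 6 and 7. All genes split into 1525 higher and 3340 lower without PC replicate 3.

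In PCs against activated B cells 4 were higher and 12 lower (24.6%, against 32.2% of all genes), with a median of -0.35. Those that rose most were Atf4, the stress-response factor whose translation mTORC1 promotes (log2 change 1.52, SE 0.12, adjusted p = 1.95e-06), and the Rag GTPases Rragd (1.44, SE 0.34, adjusted p = 0.00383) and Rraga (1.30, SE 0.16, adjusted p = 4.03e-05). Rraga was at 73.6 ± 6.42, 34.0 ± 5.66 and 84.0 ± 12.0 TPM in naïve B cells, activated B cells and PCs and Atf4 at 80.4 ± 3.33, 42.5 ± 5.91 and 122 ± 10.1, so both were lowest in activated B cells. Rragd did not exceed 1.89 TPM in any library. Rragc, a further Rag GTPase, was called lower in PCs (-1.77, SE 0.22, adjusted p = 5.57e-05), from 50.9 to 14.6 TPM. The largest falls were in Tfeb (-2.86, adjusted p = 5.65e-07), the arginine sensor Castor1, listed as Gatsl3 (-2.24, adjusted p = 0.000405), and Pdcd4, a translation inhibitor degraded after S6 kinase signalling (-1.84, adjusted p = 7.52e-05). Pdcd4 went from 111 ± 36.8 to 29.4 ± 1.65 TPM. With PC replicate 3 left out Atf4 changed by 1.48, Rragd by 1.62, Rraga by 1.38, Tfeb by -2.73, Gatsl3 by -1.73 and Pdcd4 by -1.80, each still called. Of the list 4 were then higher and 11 lower, and under median-of-ratios scaling 8 and 7. All genes split into 1295 higher and 2764 lower without PC replicate 3. With Ig genes kept none of the list was called higher in either PC comparison, and Sec13, Atf4 and Rraga lost their calls in PCs. Rragd, at no more than 0.982 TPM in any library with Ig genes kept, was not tested in that setting.

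**Figure D5:**
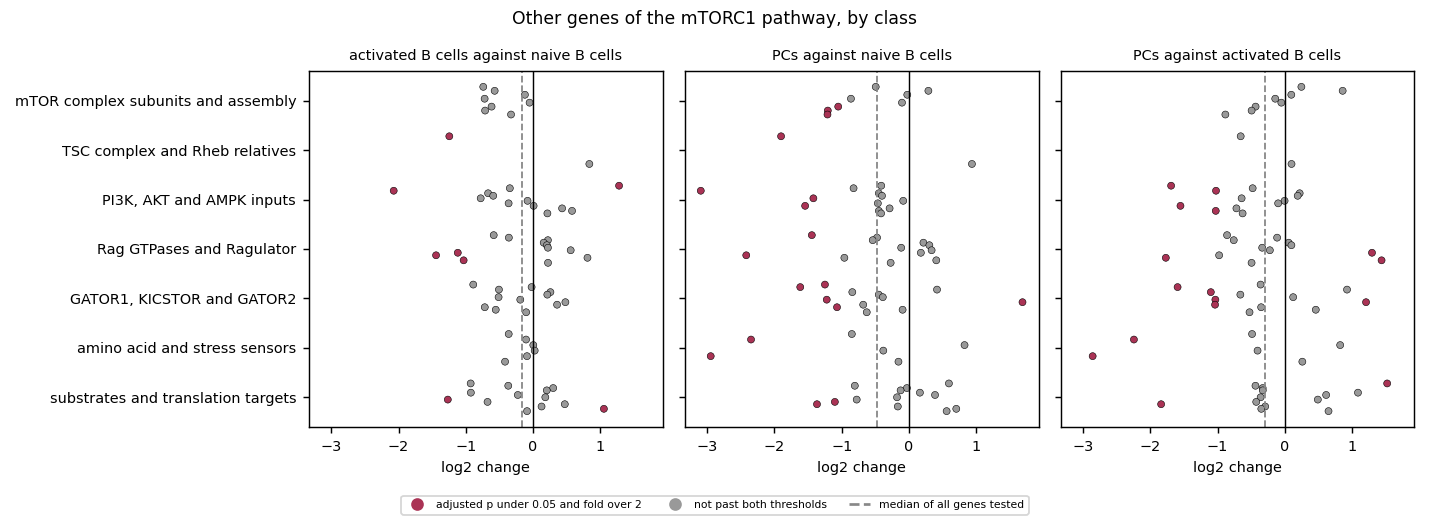
Log2 change (x axis) of the 65 tested pathway genes beyond the members, by class (rows) in the 3 comparisons, with genes past both thresholds in red and the median of all genes tested as a dashed line. In PCs most red points lie to the left, with Sec13 among the few on the right.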

How the data were processed

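RNA from sorted cells was turned into libraries with a full-length cDNA kit that does not mark strand. Per the labels, the authors estimated transcript abundance with kallisto and normalized it with voom and limma, and the submitters' processing notes name mm10. The deposited TPM values are length-corrected abundances per gene symbol, with and without Ig genes, and the deposited log2 values are voom-normalized estimates, from which estimated counts (20189900 to 38602300 per library without Ig genes) were recovered.

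TPM without Ig genes was passed to voom in limma 3.58.1 (R 4.3.3), scaled to the column sum, with an offset of 0.5, so that changes of low genes are understated. Genes reaching 1 TPM in 3 or more libraries, 12892 in number, were fitted in one model of 3 group means over 9 libraries, and Benjamini-Hochberg adjustment covered all of them. A gene was called at an adjusted p under 0.05 and a fold over 2. The design text gives 3 mice, so p-values measure the spread between these libraries. Exact permutation tests for ratios used SciPy 1.17.1. Alternatives changed the scaling, Ig genes, offset, filter, model and libraries.

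The members and gene lists were chosen with earlier results of these data known. Named genes were all 10 members, the called pathway genes that rose most (3) and fell most (3) per comparison, Sesn2 and Eif4ebp2, and the 2 genes most like each called member. A gene that the rule names is not reported here. Other genes, and the motifs, were picked after their values or sequences were seen. Coordinates are those of mm10.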

Additional observations from a re-analysis of the deposited data

How the results depend on the processing

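Sesn1 and Ddit4 were called lower in PCs under each alternative in which they were tested. Of the alternatives for single genes, 1308 kept their direction and their side of both thresholds, 24 gained and 29 lost a call, and 49 changed sign, of which 36 had an adjusted p of 0.05 or more both before and after. The other 13 follow. With Ig genes kept, Mtor (-0.77), Rheb (-0.74), Rps6kb1 (-0.49), Atf4 (-0.62) and Rraga (-1.02) turned lower in PCs against naïve B cells, and Mtor (-0.49), Rptor (-0.90), Rictor (-0.95), Tsc2 (-0.77) and Rheb (-1.13) in PCs against activated B cells. In PCs against naïve B cells Rictor turned to 0.070 under median-of-ratios scaling and 0.12 under quantile normalization, and Eif4ebp2 to 0.44 under the latter. With Ig genes kept, members called numbered 7 in PCs against naïve and 4 against activated B cells, 8 of the latter by the adjusted p alone, and pathway genes 51 and 45. Of all 12324 genes tested then, 551 were called higher and 7943 lower in PCs against naïve B cells. In PCs against activated B cells 420 of these genes were called higher and 7355 lower, with a median log2 change of -1.27. Quantile normalization gave 4 members called in PCs against activated B cells, with Mtor (1.08) and Eif4ebp1 (1.02) higher. In that comparison it called 1795 of all 12892 genes tested higher and 1843 lower. By the adjusted p alone it gave 8 members, where median-of-ratios scaling gave 7. A mean TPM of at least 10 gave 4 pathway genes in activated against naïve B cells, and 1 member in either PC comparison, since Ddit4 was then not tested. Of the 7278 genes tested then, 685 were called higher and 494 lower in activated against naïve B cells. In PCs these were 972 and 1993 against naïve B cells, and 750 and 1890 against activated B cells. With no filter, 3 members passed the adjusted p alone in activated against naïve B cells. The counts by the adjusted p alone have no share of all genes beside them under these settings, and the cause was not tested for the scalings.

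Leaving out one library gave 0 to 1 members called in activated against naïve B cells, 5 to 8 pathway genes and 3 to 6 members by the adjusted p alone. The 3 came without naïve replicate 1, naïve replicate 3 or activated B cell replicate 3, the 1 without activated B cell replicate 2. Over the same fits 957 to 1217 of the 12892 genes tested were called higher and 1081 to 1416 lower by both thresholds. In PCs against naïve B cells 3 to 6 members passed the adjusted p alone, with 3 when naïve replicate 1, naïve replicate 3 or PC replicate 3 was left out. The counts by the adjusted p alone have no share of all genes beside them in these fits either.

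Same-numbered libraries did not deviate together from their group means (r -0.0749 to 0.0675 over 9 pairs, against -0.0865 to 0.0724 for the 18 other pairs), and the labels do not say that a number marks a mouse. With the replicate number as a block, 0, 2 and 2 members were called as before, and 5, 5 and 4 by the adjusted p alone. Of all 12892 genes tested, 1110, 1507 and 1323 were called higher and 1343, 3391 and 2915 lower in that fit. Eif4ebp1 in PCs against activated B cells passed the adjusted p in that fit (0.61, adjusted p = 0.0297), and Tsc1 in PCs against naïve B cells did not (-0.52, adjusted p = 0.0561). The level of Ddit4 in PCs rested on 30.4 to 42.2 estimated reads per library, which limits its precision.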
